A study of Homo sapiens with 12 samples.

Results

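The human mitochondrial genome carries 37 genes: 13 for proteins, 2 for rRNAs and 22 for tRNAs. They are all genes of the count table whose symbol starts with MT-, 37 of the 63677 genes listed, a rule that uses no measured value. They were followed through 12 RNA-seq libraries of polyadenylated RNA from 3 established mantle cell lymphoma (MCL) lines, JEKO1, JVM2 and MAVER1. Each line was cultured for 48 h as control, with ironomycin, with ibrutinib, or with the 2 together. Ironomycin, made from salinomycin, traps iron in lysosomes, and ibrutinib inhibits the kinase BTK. Ironomycin was given at 50 nM to JEKO1 and at 250 nM to JVM2 and MAVER1, and ibrutinib at 0.5 μM, 1.5 μM and 6.25 μM to JEKO1, JVM2 and MAVER1, so that dose and line cannot be told apart. Every treatment had 1 library per line, and the 3 lines were its replicates (n = 3). The line was a term of the fits. A p-value of a treatment in these fits therefore rests on how far treatment changes differed between the lines, not on repeats within a line.

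Mitochondrial DNA is a small circle transcribed along both strands into long precursors. The tRNA genes lie between most of the others, and cutting out the tRNAs releases the mRNAs and rRNAs. Because neighbouring genes share a precursor, differences in their steady-state levels arise also after transcription, through RNA stability and tailing. The proteins are core subunits of the respiratory chain: MT-ND1 to MT-ND6 and MT-ND4L of complex I, MT-CYB of complex III, MT-CO1 to MT-CO3 of complex IV (cytochrome c oxidase), and MT-ATP6 and MT-ATP8 of the ATP synthase, complex V. Complexes I, III and IV carry iron, as iron-sulfur clusters or haem. MT-RNR1 (12S) and MT-RNR2 (16S) are the rRNAs of the mitochondrial ribosome.

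The ends of these genes differ in whether a poly(A) tail is needed to complete the stop codon. Whether the kind of end affects what a library of polyadenylated RNA holds was not tested. In the GENCODE 29 transcript models (GRCh38, the mitochondrial sequence of that release), 6 of the 13 protein genes stop in a partial codon, which the poly(A) tail completes to a stop codon, and 7 end in a whole one. The last 24 bases of 3 complex IV genes and 3 complex I genes are shown 5′ to 3′, with the last codon, whole or partial, in capitals, to show a whole and a partial end in each complex.
MT-CO1: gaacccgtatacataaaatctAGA
MT-CO2: atagggcccgtatttaccctaTAG
MT-CO3: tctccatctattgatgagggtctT
MT-ND1: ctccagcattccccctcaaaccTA
MT-ND2: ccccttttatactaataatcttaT
MT-ND6: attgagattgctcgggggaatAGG
MT-CO1 and MT-ND6 end in AGA and AGG, which are not used as sense codons in human mitochondria. MT-ND6 is the only protein gene on the strand opposite to the others. MT-ATP8 and MT-ATP6 overlap by 46 bases and MT-ND4L and MT-ND4 by 7, shown in capitals with 8 bases on either side.
MT-ATP8/MT-ATP6: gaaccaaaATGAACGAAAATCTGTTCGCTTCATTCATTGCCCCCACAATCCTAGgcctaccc
MT-ND4L/MT-ND4: ctactccaATGCTAAaactaatc
How reads in these overlaps were assigned, and whether counting used the strand, is not given in the sources used here. The members of each overlapping pair are therefore uncertain as single genes, and MT-ND6 reads cannot be told apart from antisense RNA of its region.

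The libraries held 35448523 to 38630809 counted reads. B-cell markers were present (7 of 7 at 1 CPM or more), and the 6 T-cell markers together reached at most 3.48 CPM. Of the MCL markers, CCND1 had mean levels of 2800, 265 and 4570 CPM in JEKO1, JVM2 and MAVER1. SOX11 had 140, 0 and 111 CPM and CD5 8.46, 0.0413 and 28.8 CPM in the same order. The JEKO1 library with both drugs stood apart: it had the fewest reads, the largest scaling factor (1.19, the others 0.914 to 1.12), and a share of rRNA among its mitochondrial reads of 48.5%, against 3.63 to 17.2% in the other 11 libraries. In bulk RNA, fewer cells of a type and less RNA per cell cannot be told apart. Values without it, an alternative chosen after the data were seen, are given beside the fitted changes of averaged ironomycin and of both drugs against control where it ended a call or moved the value by over 1.5 times.

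The mitochondrial share of all counted reads was lower with ironomycin in each line. In JEKO1 the 37 genes took 2.05% of reads in the control, 2.03% with ibrutinib, 1.27% with ironomycin and 0.883% with both drugs. In JVM2 the shares were 2.03%, 2.18%, 1.75% and 1.89% in the same order. In MAVER1 they were 1.92%, 1.76%, 1.56% and 1.21%. In every line both ironomycin libraries lay below both others, with the widest gap in JEKO1 and the narrowest in JVM2.

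The mRNA pool also changed in its make-up. Complex IV transcripts took 49.7 to 56.9% of the reads on the 13 mRNAs in the 6 libraries without ironomycin and 33.6 to 39.9% in the 6 with it. Complex I transcripts took 29.8 to 34.9% without and 44.8 to 50.9% with it. Neither pair of ranges overlapped, and complex I passed complex IV as the larger part in all 6 ironomycin libraries. Within complex I, MT-ND2 took 4.99 to 7.91% of the pool without and 14.35 to 23.0% with ironomycin. MT-ND1 took 3.78 to 6.81% and 7.91 to 11.7%. MT-ND6 took a smaller part with ironomycin, and the ranges of MT-ND3, MT-ND4L, MT-ND4 and MT-ND5 overlapped. These are parts of 1 pool, so a smaller complex IV part raises the others. Of all counted reads, complex I transcripts took 0.583% in the JEKO1 control, 0.471% with ironomycin and 0.231% with both drugs. They took 0.547%, 0.769% and 0.806% in JVM2 and 0.523%, 0.653% and 0.518% in MAVER1. MT-CYB took 4.81 to 7.48% of the pool without and 5.91 to 8.73% with ironomycin, and the complex V pair 7.82 to 8.99% and 6.85 to 9.26%, so these ranges overlapped. These shares are a description and were not tested. Counting error alone gives each share of all reads a 95% Wilson interval of at most 0.00461 percentage points on either side.

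**Figure D1:**
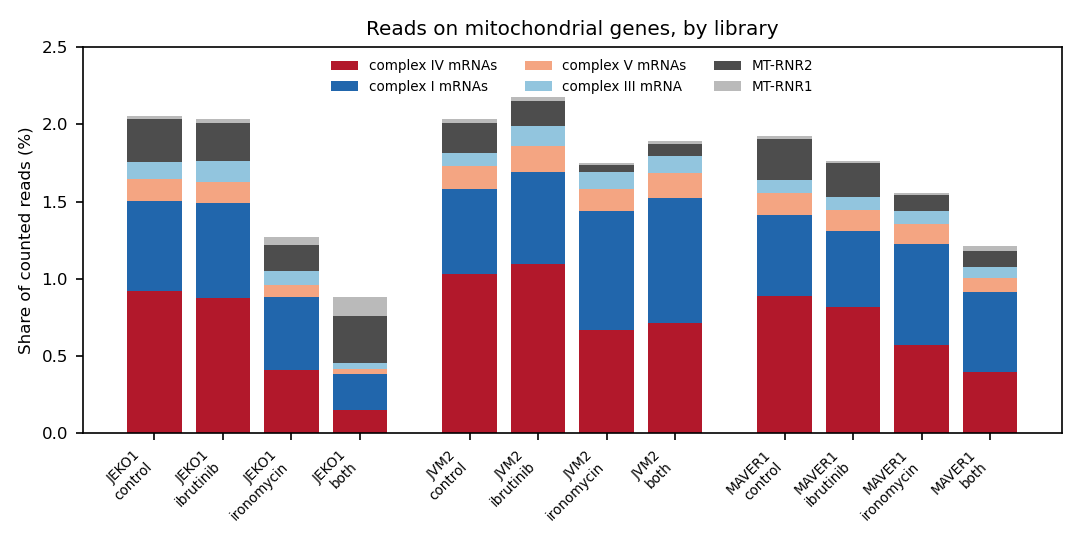
Share of all counted reads (y axis, %) taken by mitochondrial genes in each of the 12 libraries (x axis), stacked by complex and rRNA; each bar is 1 library and tRNA reads are too few to show. The complex IV part is smaller in the 6 libraries with ironomycin, down to 0.152% of all reads in the JEKO1 library with both drugs, where the rRNA part is the larger one.

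Levels of different genes were compared per length, as TMM-normalised CPM (reads scaled to a common library size) per kb of gene. Among the mRNAs and rRNAs of the control libraries, the complex IV mRNAs ranked highest: MT-CO3 with 3740 ± 217, MT-CO2 with 3411 ± 281 and MT-CO1 with 2990 ± 624 normalised CPM per kb (SD, n = 3). Their ranges over the lines overlapped, and the lowest MT-CO1 value (2538) was above the highest of MT-ATP6 (2188), the next in order. MT-RNR2 followed with 1635 ± 239, overlapping MT-ATP6. From there MT-ND4L, MT-ND4, MT-ND2, MT-ND3, MT-ND1 and MT-CYB ran from 1256 down to 855 with each neighbour overlapping the next. A gap separated MT-CYB from MT-ATP8 (628 ± 44.8) and MT-ND5 (578 ± 60.1), which overlapped each other. MT-ND6 (321 ± 39.5) and MT-RNR1 (214 ± 52.2) came last, each below the range of the gene before it. As the RNA was selected on poly(A), the rRNA levels are those of tailed molecules, not of all rRNA.

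With both drugs the order differed. MT-ND2, the 8th gene by mean level in the controls, ranked 2nd with 1740 ± 866 normalised CPM per kb. MT-CO1 went from the 3rd to the 5th place, with 1149 ± 789. The ranges over the lines overlapped widely: 841 to 2569 for MT-ND2, 366 to 1942 for MT-CO1 and 553 to 3218 for MT-CO3, still 1st. In JEKO1 MT-ND2 itself was lower with both drugs (841) than in the control (1035). In JEKO1 with both drugs MT-RNR2 and MT-RNR1 took ranks 1 and 2, where the control of that line had them at 5 and 15.

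**Figure D2:**
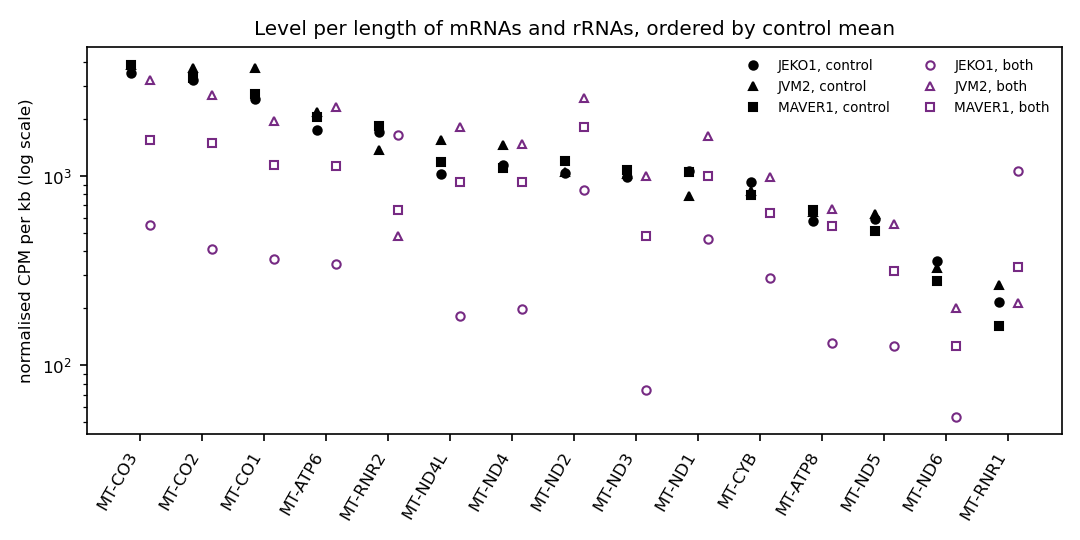
Normalised CPM per kb (y axis, log scale) of the 13 mRNAs and 2 rRNAs (x axis, ordered by control mean) in the 3 control libraries (filled black) and the 3 libraries with both drugs (open purple), 1 point per library. With both drugs, JEKO1 lies lowest for the 13 mRNAs and highest for both rRNAs.

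Of the 37 genes, 18 passed the filter on low counts, as did 18674 genes in all: the 13 mRNAs, both rRNAs, MT-TY, MT-TE and MT-TP. Ironomycin was tested as the average of its effect without and with ibrutinib, in 1 edgeR fit over all 12 libraries with the cell line as a term. At an adjusted p under 0.05, 9 of the 18 were called, 2 higher and 7 lower, where 33.4% of all genes were called (17.1% higher, 16.3% lower). With a log2 change of at least 1 in size as well, 5 were called (MT-TE, MT-CO1, MT-ND6, MT-RNR2 and MT-CO2) against 3.94% of all genes. The median log2 fold change was -0.68 over the 18 genes and 0.04 over all genes tested. The count depended on the lines in the fit, as did the calls among all genes. Without MAVER1 0 of 19 members tested were called, beside 509 of 18851 genes. The count was 6 of 18 without JEKO1 (1750 of 17875 genes) and 11 of 19 without JVM2 (6760 of 17985 genes). With the cell line left out of the fit, 0 members and 0 genes were called. The main fit had no term for the ironomycin effect of a single line. The comparisons without and with ibrutinib in a line therefore counted as separate. The SE of MT-CO1 was 0.22 for the average and 0.307 for ironomycin against control. Where the effect differed by line, as tested below for 11 of the 18, the p-value of the average can be too small.

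Both ironomycin libraries lay below both others in every line for 6 of the 18 genes (MT-CO1, MT-CO2, MT-CO3, MT-ND5, MT-ND6 and MT-TP), as they did for 11.1% of all genes. They lay above both others in every line for MT-TE alone, as for 9.72% of all genes.

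**Figure D3:**
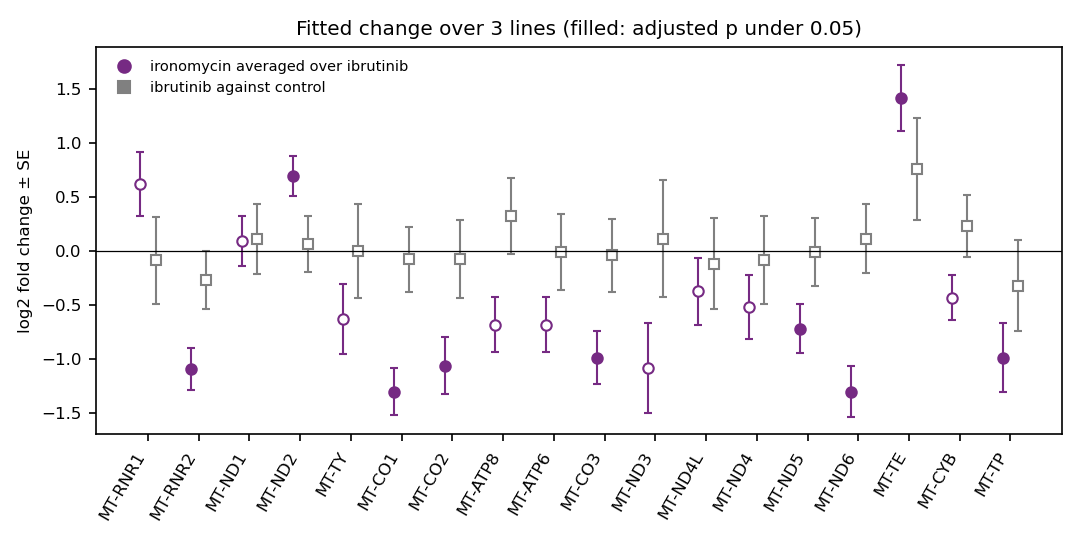
Fitted log2 fold change with its SE (y axis) for the 18 tested genes in order along the mitochondrial genome (x axis), for ironomycin averaged over ibrutinib (purple circles) and for ibrutinib against control (grey squares); filled symbols have an adjusted p under 0.05. Ironomycin has 9 filled symbols, MT-ND2 and MT-TE above 0 and 7 below, and ibrutinib has none.

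All 3 complex IV mRNAs fell with ironomycin. MT-CO1 encodes the subunit that holds the haem and copper site where oxygen is reduced. In JEKO1 its level was 3914 normalised CPM in the control, 3737 with ibrutinib, 1473 with ironomycin and 564 with both drugs. In JVM2 the values were 5708, 5967, 2686 and 2995, and in MAVER1 4208, 3594, 2445 and 1757. Every ironomycin library was lower than every library without it, across lines as well as within them. The fitted MT-CO1 change was -1.30 (SE 0.22, edgeR quasi-likelihood adjusted p = 0.00229), and -1.08 without the JEKO1 library with both drugs.

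MT-CO2, which carries the copper centre that takes electrons from cytochrome c, had 2189, 2010, 911 and 281 normalised CPM in JEKO1 in the same order of treatments. It had 2551, 2540, 1887 and 1823 in JVM2 and 2259, 2164, 1552 and 1018 in MAVER1. The 6 libraries with ironomycin were again all below the other 6. MT-CO2 fell by 1.06 on the log2 scale (SE 0.26, edgeR adjusted p = 0.0116). MT-CO3, a structural subunit of the same core, ran from 433 to 2523 normalised CPM with ironomycin and from 2617 to 3294 without. Its fitted change was -0.99 (SE 0.25, edgeR adjusted p = 0.0118), and it missed the threshold without JEKO1 (-0.62, adjusted p = 0.0516). JVM2 showed the smallest MT-CO3 difference of the lines, from 3041 in the control to 2468 with ironomycin.

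The complex I mRNAs did not move as a group. MT-ND2, a membrane-arm subunit of the proton pump, was higher with ironomycin. Its level in JVM2 was 1091 normalised CPM in the control, 1068 with ibrutinib, 2550 with ironomycin and 2677 with both drugs. In MAVER1 the values were 1246, 1257, 2289 and 1885. JEKO1 had 1079, 1217, 1600 and 876, so there the library with both drugs was the lowest of the 4 and the groups overlapped. The MT-ND2 change averaged 0.70 (SE 0.19, edgeR adjusted p = 0.0162). It was 0.37 without JVM2 (adjusted p = 0.12) and 0.87 without the JEKO1 library with both drugs, and DESeq2 did not call it (adjusted p = 0.0601).

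MT-ND6 and MT-ND5 fell. MT-ND6, a membrane-arm subunit, had 187, 211, 73.7 and 28.1 normalised CPM in JEKO1 as control, with ibrutinib, with ironomycin and with both drugs. It had 172, 216, 87.6 and 106 in JVM2 and 146, 127, 81.3 and 66.5 in MAVER1. The 2 sets of 6 libraries did not overlap. The MT-ND6 change was -1.30 (SE 0.23, edgeR adjusted p = 0.00281). MT-ND5, the distal proton-pumping subunit, ran from 230 to 1014 normalised CPM with ironomycin and from 771 to 1267 without, overlapping across lines but not within any. It changed by -0.72 (SE 0.23, edgeR adjusted p = 0.0327), and by -0.36 without JEKO1 (adjusted p = 0.0606).

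The other complex I mRNAs were not called. MT-ND1, which lies where quinone enters the complex, had a fitted value of 0.09 (SE 0.23, edgeR adjusted p = 0.784) and of 0.32 without the JEKO1 library with both drugs, with 752 normalised CPM in the JVM2 control against 1535 with ironomycin, and 1146 in JEKO1 with ibrutinib against 447 with both drugs. MT-ND3, a small membrane-arm subunit, had a fitted value of -1.08 with a large error (SE 0.41, adjusted p = 0.068): JEKO1 went from 344 normalised CPM in the control to 111 with ironomycin and 25.6 with both drugs, while JVM2 had 355, 409 and 345. The MT-ND3 value was -0.68 without the JEKO1 library with both drugs, and without JVM2 it was -1.77 and called (adjusted p = 0.0138), as it was with no filter on low counts (adjusted p = 0.0245). The overlapping pair MT-ND4L and MT-ND4 had changes of -0.37 (adjusted p = 0.384) and -0.52 (adjusted p = 0.207), and both turned above 0 without JEKO1 (0.17 and 0.04). Without the JEKO1 library with both drugs they were -0.05 and -0.21.

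MT-CYB, the mitochondrial subunit of complex III, was not called at -0.43 (SE 0.21, edgeR adjusted p = 0.133). It ran from 332 to 1127 normalised CPM with ironomycin and from 861 to 1398 without. For complex V, MT-ATP6 (the channel subunit through which protons pass) had a fitted value of -0.68 (SE 0.25, edgeR adjusted p = 0.0602) and MT-ATP8 one of -0.68 (SE 0.26, adjusted p = 0.0625). MT-ATP6 had 1490 normalised CPM in the JVM2 control and 1404 with ironomycin, against 1193 and 635 in JEKO1. Without the JEKO1 library with both drugs the values were -0.22 for MT-CYB, -0.43 for MT-ATP6 and -0.42 for MT-ATP8, all not called. MT-ATP6 was called without JVM2 (-1.07, adjusted p = 0.0137), and both complex V mRNAs with no filter on low counts (adjusted p = 0.0205 and 0.0229).

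A ratio within a library does not depend on the scaling between libraries. The reads on MT-ND2 were 0.179 to 0.35 times those on MT-CO1 in the 6 libraries without ironomycin and 0.894 to 1.55 times in the 6 with it. The ranges did not overlap, and since this pair was picked after its values were seen, it was not tested. The log2 ratio of MT-ND6 to MT-ND5, neighbours on opposite strands, was -3.17 ± 0.17 with ironomycin and -2.58 ± 0.11 without (SD, n = 6 libraries each), a difference of -0.59 (2-sided exact permutation within lines, p = 0.00926, adjusted over 4 ratios p = 0.0185). This is the smallest p that the 216 arrangements allow. They move single libraries within a line, so both ironomycin libraries of a line count as separate. The permutation p-values therefore do not measure the spread of the change between lines. The ratio of MT-ATP8 to MT-ATP6 differed by 0.0031 (exact permutation, adjusted p = 0.991) and that of MT-ND4L to MT-ND4 by 0.13 (exact permutation, adjusted p = 0.21).

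The 2 rRNAs, cut from the same precursor, changed to different degrees. MT-RNR2 had 2658 normalised CPM in the JEKO1 control, 2397 with ibrutinib, 1523 with ironomycin and 2576 with both drugs. It had 2134, 1738, 528 and 749 in JVM2, and 2855, 2291, 1010 and 1037 in MAVER1. In JVM2 and MAVER1 both ironomycin libraries were far below the others, and in JEKO1 the library with both drugs lay among those without ironomycin. MT-RNR2 changed by -1.09 (SE 0.19, edgeR adjusted p = 0.00263), and by -1.27 without the JEKO1 library with both drugs.

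MT-RNR1 had 206 normalised CPM in the JEKO1 control, 208 with ibrutinib, 436 with ironomycin and 1017 with both drugs. MAVER1 had 154, 139, 175 and 314. JVM2 had 254, 240, 142 and 204, so it was lower with ironomycin in that line and higher in the other two. Averaged over the lines, MT-RNR1 was not called (0.62, SE 0.30, edgeR adjusted p = 0.133), but was without JVM2 (1.16, adjusted p = 0.0048). Without the JEKO1 library with both drugs its value was 0.40, not called.

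The balance of the rRNAs moved the same way in all 3 lines. MT-RNR2 had 12.9 times the reads of MT-RNR1 in the JEKO1 control and 11.5 times with ibrutinib, against 3.5 times with ironomycin and 2.53 times with both drugs. The ratios were 8.41, 7.24, 3.72 and 3.67 in JVM2, and 18.5, 16.5, 5.76 and 3.3 in MAVER1. The 2 sets of libraries did not overlap. The log2 ratio was 1.86 ± 0.38 with ironomycin and 3.57 ± 0.53 without (SD, n = 6 libraries each), a difference of -1.71 (2-sided exact permutation within lines, p = 0.00926, adjusted p = 0.0185, again the smallest possible), and of -1.60 without the JEKO1 library with both drugs. Here too single libraries were moved, so the p does not measure the spread between the 3 lines.

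**Figure D4:**
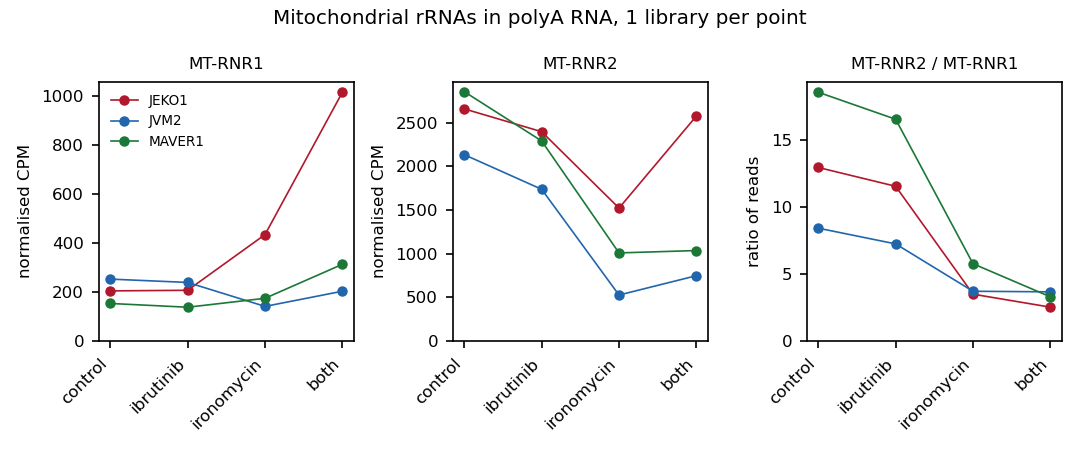
Normalised CPM of MT-RNR1 and MT-RNR2 and the ratio of their reads (y axes, linear, from 0) by treatment (x axis), 1 point per library and 1 colour per line, with lines joining the libraries of a cell line. The ratio is 7.24 to 18.5 in the libraries without ironomycin and 2.53 to 5.76 with it.

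The tRNA genes were mostly outside what these libraries could read. Of 22, 12 had 0 reads in every library, and 19 had under 10 reads in most libraries and are marked as low. The 7 of these with any read were MT-TF, MT-TI, MT-TM, MT-TW, MT-TN, MT-TC and MT-TT, and the highest count among them was 13 (MT-TT in the JEKO1 control). A count of 0 allows up to 3 reads, at most 0.0846 CPM. Mature mitochondrial tRNAs are short (59 to 75 bases in the models used) and carry no long poly(A) tail. The 3 that passed the filter all lie on the strand that carries only 8 of the 22 tRNA genes. Their sequences are shown in the direction of the tRNA, without capitals.
MT-TY: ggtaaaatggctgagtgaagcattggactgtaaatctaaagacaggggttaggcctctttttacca
MT-TE: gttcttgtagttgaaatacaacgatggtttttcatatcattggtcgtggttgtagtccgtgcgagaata
MT-TP: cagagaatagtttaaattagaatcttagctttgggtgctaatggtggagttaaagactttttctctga

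MT-TE, the tRNA for glutamate and the neighbour of MT-ND6 on the same strand, rose. It had 0.653 normalised CPM in the JEKO1 control, 1.06 with ibrutinib, 1.24 with ironomycin and 1.77 with both drugs. It had 0.0856, 0.755, 1.21 and 2.64 in JVM2 and 0.94, 0.916, 2.09 and 2.72 in MAVER1. These levels rest on 3 reads (JVM2 control) to 103 reads. The MT-TE change was 1.42 (SE 0.31, edgeR adjusted p = 0.00619), and 1.07 without JVM2 (adjusted p = 0.007).

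MT-TP, the tRNA for proline, had 14 to 142 reads and changed by -0.99 (SE 0.32, edgeR adjusted p = 0.0357). In JEKO1 it went from 3.57 normalised CPM in the control to 0.933 with ironomycin and 0.331 with both drugs. Its call rested on that line and on that library: it was -0.43 without JEKO1 (adjusted p = 0.139) and -0.70 without the JEKO1 library with both drugs (adjusted p = 0.0516). MT-TY, the tRNA for tyrosine, was not called (-0.63, SE 0.33, adjusted p = 0.159, and -0.33 without that library). Reads on these genes can come from precursors or from RNA of the opposite strand, and the counts do not tell these apart.

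The single treatments, which share the control libraries, were compared next. Ironomycin against control called MT-RNR2 alone (-1.46, SE 0.27, edgeR adjusted p = 0.0483), 1 of 18 members against 0.584% of all genes (0.171% lower, and 0.214% past a log2 change of 1). Leaving out the JEKO1 library with both drugs gave 4 of 19 members tested (281 of 19094 genes). That library is in neither group compared and acts through the shared fit, filter and scaling. Leaving out JVM2 or MAVER1 gave 0 members (1636 of 17985 and 1 of 18851 genes). Ibrutinib against control called 0 members and 0% of all genes with edgeR, and DESeq2 called 0 members. At an unadjusted p under 0.05 there were 0 members and 680 genes, and the median change of the 18 was -0.01.

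Both drugs against control called 7 of 18 members, where 28.2% of all genes were called (14.2% higher, 14% lower); 6 also passed a log2 change of 1, against 6.29% of all genes. MT-TE was higher (2.15, SE 0.44, edgeR adjusted p = 0.00723). MT-CO1 (-1.57), MT-ND6 (-1.42), MT-CO2 (-1.41), MT-TP (-1.34), MT-CO3 (-1.31) and MT-RNR2 (-0.99) were lower, with adjusted p from 0.00654 to 0.048. Without JEKO1 the count was 1 (37 of 17875 genes) and without MAVER1 it was 0 (22 of 18851 genes). Without the JEKO1 library with both drugs it was again 7 (2275 of 19094 genes). MT-TP was then no longer called (-0.81, adjusted p = 0.148), while MT-ND2 was (0.92, adjusted p = 0.0246). MT-CO2 and MT-CO3 were then -0.91 and -0.85 and still called. Both drugs against ibrutinib called 5 members, MT-CO1, MT-CO2, MT-CO3 and MT-ND6 lower and MT-TE higher, against 23.3% of all genes (11.8% higher, 11.5% lower). All 5 passed a log2 change of 1, against 4.66%. Leaving out JEKO1 or MAVER1 brought that count to 0 (1 of 17875 and 6 of 18851 genes). Leaving out JVM2 brought it to 9 (5192 of 17985 genes).

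Ibrutinib added to ironomycin was not shown to change any member in the fits over all libraries. Both drugs against ironomycin called 0 members and 0% of genes with edgeR and 0 members with DESeq2, with 1 member (MT-RNR1, 0.95, SE 0.41) and 1970 genes at an unadjusted p under 0.05. In single lines the MT-RNR1 log2 ratio was 1.22 (JEKO1), 0.52 (JVM2) and 0.84 (MAVER1). An edgeR fit on the 6 libraries compared alone called 1 member, higher, beside 62 of 16263 genes. All 13 mRNAs had fitted values below 0 there, with a median of -0.47 against 0.01 over all genes tested. The mRNAs share precursors, so their signs are not independent. The departure of both drugs from the sum of the single changes was below 0 for the 13 mRNAs as well (median -0.46), with 0 members called by edgeR or DESeq2 and 0 members and 367 genes at an unadjusted p under 0.05. In single lines, the median log2 ratio of both drugs over ironomycin for the 13 mRNAs came to -1.40 (JEKO1), 0.07 (JVM2) and -0.47 (MAVER1). Of the 13, 10 lay above 0 in JVM2, and 0 did in JEKO1 and in MAVER1.

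The ironomycin effect differed between the lines for 11 of the 18 genes (edgeR, 2 coefficients, adjusted p under 0.05), against 9.38% of all genes. No line had a repeat of a treatment, so the error of this test came from how far the ibrutinib change differed between lines. Without JEKO1 the count of members was 3 (1897 of 17875 genes) and without MAVER1 it was 3 (260 of 18851 genes). Without the JEKO1 library with both drugs it was 8 (1415 of 19094 genes). In JEKO1 the 13 mRNAs had a median log2 ratio of -0.91 for ironomycin over control and -2.47 for both drugs over ibrutinib. In JVM2 these medians were -0.09 and -0.31, and in MAVER1 -0.22 and -0.43. JEKO1, which received the lowest ironomycin dose in nM, thus had the widest drop, and JVM2 and MAVER1, at the same dose, lay closer to each other.

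MT-RNR1 had the smallest p of the difference (adjusted p = 0.000354): its ironomycin over control log2 ratio came to 1.08 for JEKO1, -0.84 for JVM2 and 0.19 for MAVER1, and its both over ibrutinib ratio 2.29, -0.23 and 1.18. MT-ND3 (adjusted p = 0.00764) had -1.63, 0.20 and -0.30, and then -3.89, 0.00 and -1.35. MT-ND1 (adjusted p = 0.0241) had -0.14, 1.03 and 0.22, and then -1.36, 0.60 and 0.14. JEKO1 lay lowest for both of these mRNAs and highest for MT-RNR1. MT-CO1 (adjusted p = 0.109) and MT-ND6 (adjusted p = 0.117) were not called: their ironomycin over control ratios were -1.41, -1.09 and -0.78, and -1.34, -0.98 and -0.84, below 0 in each line.

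**Figure D5:**
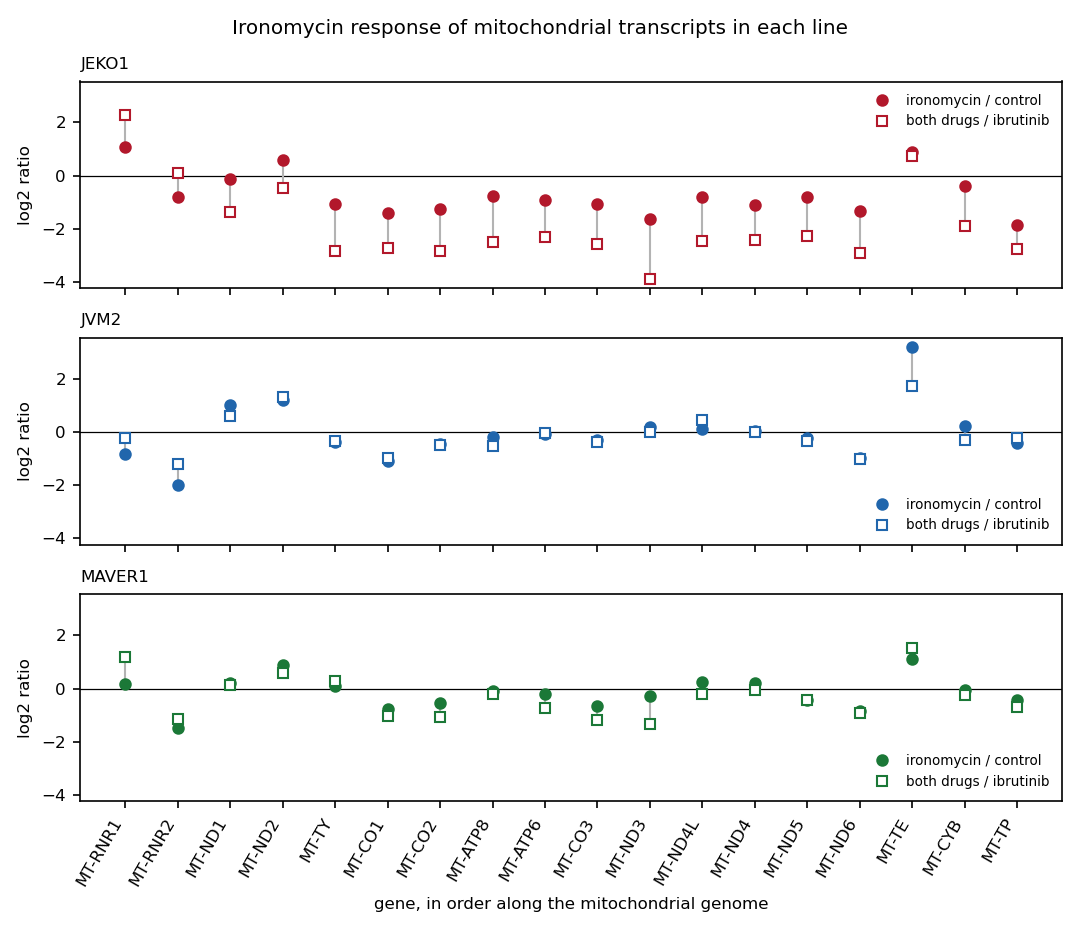
Log2 ratio (y axis) of ironomycin over control (filled circles) and of both drugs over ibrutinib (open squares) in each line (panels) for the 18 tested genes in order along the mitochondrial genome (x axis); each point compares 1 library with 1 other, without an error. In JEKO1 the mRNAs reach -3.89 with both drugs, while in JVM2 and MAVER1 MT-ND1 and MT-ND2 lie above 0 and MT-CO1 and MT-ND6 below it.

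Over the 4 treatments, levels differed between the lines for 9 of 18 members (edgeR, 2 coefficients), where 90% of all genes did. MT-RNR2 (adjusted p = 0.00434) was lowest in JVM2 under each treatment, and MT-CO1 (adjusted p = 0.00902) was highest there. MT-TP, MT-ATP6, MT-ND4L, MT-RNR1, MT-ND4, MT-CO3 and MT-CO2 were the other seven. The count was 5 without JVM2 (12698 of 17985 genes) and 2 with no treatment term (15781 of 18674 genes).

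Nuclear DNA holds old copies of mitochondrial genes, and reads can be split between a copy and its source. The table listed 389 such copies by name, of which 72 had a read and 11 had at least 10 reads in some library. MTND2P28, MTATP6P1 and MTCO1P12 had the most. MTND2P28 had 15.4 to 21.9% as many reads as MT-ND2, and MTATP6P1 15.3 to 23.7% as many as MT-ATP6. MTCO1P12 had 3.08 to 3.58% of the MT-CO1 reads in the 8 libraries of JEKO1 and JVM2 and 7.29 to 7.94% in the 4 of MAVER1. The levels of MT-ND2, MT-ATP6 and MT-CO1 are uncertain on that account. Those amounts do not bound the uncertainty, as how reads matching both a copy and its source were counted is not known. Under averaged ironomycin MTND2P28 changed by 0.64 (SE 0.22, edgeR adjusted p = 0.0428) and MTCO1P12 by -1.28 (SE 0.24, adjusted p = 0.0033), beside 0.70 for MT-ND2 and -1.30 for MT-CO1. MTATP6P1 was not called (-0.67, SE 0.25, adjusted p = 0.0618), nor was MT-ATP6 (-0.68).

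The nuclear genes that maintain, transcribe and process the mitochondrial genome were described with 4 lists, of which 76 genes were tested. Under averaged ironomycin 4 rose, 37 fell and 35 were not called, where 17.1% of all genes tested rose and 16.3% fell. Their median log2 change was -0.20 against 0.04 over all genes, and none reached a log2 change of 1 in size. Of 22 genes for RNA cleavage, stability and decay, 12 fell and 1 rose. They included HSD17B10 (-0.55), part of the RNase P that cuts the 5′ ends of the tRNAs, ELAC2 (-0.41), which cuts the 3′ ends, and TBRG4 (-0.45), an RNA-binding FASTK-family protein. FASTK, which is needed for MT-ND6 mRNA, rose (0.30, SE 0.08, edgeR adjusted p = 0.0166).

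Of 24 genes for RNA modification and rRNA maturation, 11 fell and 0 rose, to be read against the same 16.3% and 17.1% of all genes, as are the counts of the other lists. MRM3 (-0.56), a methyltransferase of the 16S rRNA, DHX30 (-0.49), a helicase of mitochondrial ribosome assembly, and TRUB2 (-0.45), a pseudouridine synthase, fell most. Of 9 transcription genes 3 fell, MTRES1 (-0.34), MTERF3 (-0.32) and TFB2M (-0.26), the last a factor that opens the promoter for the RNA polymerase, and MTERF2 rose (0.39). Of 21 genes for DNA replication and maintenance 11 fell and 2 rose. SSBP1 (-0.47), which coats single-stranded mitochondrial DNA, fell most, followed by ENDOG (-0.41), a mitochondrial nuclease, and DGUOK (-0.40), a deoxynucleoside kinase. TK2, the mitochondrial thymidine kinase, rose (0.74, SE 0.17, edgeR adjusted p = 0.00752), as did SLC25A36 (0.30), a pyrimidine nucleotide carrier. The part of these changes in the levels of mitochondrial RNA was not tested.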

How the data were processed

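Polyadenylated RNA of 12 cultures (3 cell lines, 4 treatments, 1 library each) was sequenced in paired-end mode. As deposited, the table gives counts, unnormalized, for each Ensembl gene and library. The submitters' processing notes name STAR, DESeq2 and GRCh37 without roles or versions. The counting tool, its strand setting and the annotation release are not given in the sources used here. All 12 columns were used (0 left out). Of 63677 genes, 52181 could be named. Gene lengths and sequences of all 37 mitochondrial genes came from GENCODE 29 (GRCh38), so values per kb depend on that release.

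Membership of the mitochondrial genes rests on the symbol alone, but this group and all lists were picked with earlier results of these data known. The p-values, those of the gene ratios included, are to be read with that in mind. Genes named were all 37, the 3 nuclear copies with most reads, and from each pathway list at most the 3 largest rises and 3 largest falls called under averaged ironomycin. The low mark was under 10 reads in most libraries.

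Tests used edgeR 4.0.16 (R 4.3.3): TMM, filterByExpr by treatment, quasi-likelihood F-test, Benjamini-Hochberg adjustment over 18674 genes, with treatment and cell line as terms. The line was a block because its libraries come from the same cell line: deviations from treatment means correlated at 0.926 to 0.976 for the 18 pairs within a line and from -0.705 to -0.127 for the 48 other pairs. The test by line added 2 coefficients. Log2 ratios of single lines used a prior count of 2, and ratios of genes within a library 0.5 and an exact permutation within lines. Alternatives were other scalings, filters, thresholds, DESeq2 1.42.0, fits without the line or treatment term, the 6 libraries of a comparison alone, and leaving out each line.

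On simulated counts for 18674 genes with averaged ironomycin, edgeR recovered 88 of 100 genes changed by 1 and 98 of 100 changed by 2 on the log2 scale, with 14 unchanged genes called. For the effect by line, with the change planted in JEKO1 alone, it recovered 28 and 73 of 100, with 16 unchanged genes called. DESeq2 recovered 83 and 94 for averaged ironomycin, with 19 unchanged genes called. The changed genes were drawn from all genes above a minimum mean count, and for averaged ironomycin every line got the same change. These rates need not hold for the mitochondrial genes, many of which changed differently by line. Depth per library was 35448523 to 38630809 reads; intervals and floors cover counting error only, as no molecular identifiers were counted. Python 3.11.15, pandas 2.3.3, numpy 2.4.6 and matplotlib 3.10.9 served for tables and plots.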

Additional observations from a re-analysis of the deposited data

Results flagged for a closer look

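The ironomycin effect differed between the 3 lines, by the edgeR test of the difference itself (adjusted over all genes tested), for 11 mitochondrial genes. The rRNAs had adjusted p = 0.000354 (MT-RNR1) and 0.00797 (MT-RNR2). Among complex I mRNAs the values were 0.00764 (MT-ND3), 0.0115 (MT-ND4), 0.0241 (MT-ND1), 0.0253 (MT-ND2) and 0.0274 (MT-ND4L). MT-CO2 of complex IV had 0.0498 and MT-ATP6 of complex V 0.0469, both close to the threshold, and the tRNA genes MT-TP and MT-TY had 0.028 and 0.0387. MT-RNR1 lay above 0 in JEKO1 and below 0 in JVM2 both without and with ibrutinib (1.08 and 2.29 against -0.84 and -0.23 on the log2 scale). For MT-ND4, JEKO1 had -1.11 and -2.44, JVM2 0.02 and -0.01, and MAVER1 0.21 and -0.05. Without the JEKO1 library with both drugs, MT-TY, MT-ATP6 and MT-TP missed the threshold (adjusted p = 0.0754, 0.0773 and 0.0876). The lines differed in dose as well, and line and dose cannot be told apart.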

How the results depend on the processing

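Of 724 values recomputed under alternatives, 572 kept their direction and side of the threshold (counts within 1.5 times). Counts of mitochondrial genes called were 1 for ironomycin against control, 7 for both drugs against control, 5 for both drugs against ibrutinib, 9 for averaged ironomycin, 11 for the effect by line and 9 for the levels between lines. Without the filter on low counts, which tests 25 members, the first 3 were 4, 11 and 12 and the effect by line 17. Of 35583 genes, 497, 4808, 3911 and 2225 were then called. DESeq2 gave 3 for ironomycin against control (2308 of 18674 genes) and 8 for both drugs against ibrutinib (5545 of 18674 genes). With no replicate block (no term for the line), the first 4 counts were each 0, as were the calls among all genes. On the 6 libraries compared alone, the first 3 were 0 (2 of 15969, 5 of 16136 and 306 of 16149 genes). Both drugs against ironomycin gave 1 there in place of 0 (62 of 16263 genes). Requiring a log2 change of 1 left 5 for averaged ironomycin (735 of 18674 genes), and no treatment term left 2 between lines (15781 of 18674 genes). Leaving out single lines or the JEKO1 library with both drugs gave ranges of 0 to 4, 0 to 10, 0 to 9, 0 to 11, 3 to 8 and 5 to 11 in the order of the second sentence. These fits have fewer samples. Calls among all genes moved with them: 1 to 1636, 22 to 6103, 1 to 5192, 509 to 6760, 260 to 1897 and 12698 to 16926 in the same order.

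MT-ND1 under both drugs against control was -0.02 and had no stable sign: 0.0935 with library totals, 0.0903 with no replicate block and -0.613 to 0.47 when a line or that library was left out (0.389 without the library). Under averaged ironomycin, leaving out lines gave -0.304 to 0.487 for MT-ND1, -0.794 to 0.173 for MT-ND4L and -0.852 to 0.0448 for MT-ND4. None of these was called in the main result. The ratio differences ranged from -2.02 to -1.54 (MT-RNR2 to MT-RNR1), -0.652 to -0.518 (MT-ND6 to MT-ND5) and -0.16 to 0.149 (MT-ATP8 to MT-ATP6); with 2 lines the 36 arrangements cannot reach the threshold. Library totals in place of TMM moved the median of all genes from 0.04 to 0.13 and the calls from 3186 higher and 3044 lower to 4419 and 1949; the mitochondrial calls stayed at 2 higher and 7 lower. Depth limits the 19 tRNA genes marked low.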
